A study of Mus musculus with 6 samples.

Results

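The Wnt pathway was followed here through 45 genes in mouse epidermal cells with and without a Cre recombinase that deletes Rnaseh2b. The genes were taken by symbol and role, with earlier results of these data known. They were 13 ligands, 11 receptors and co-receptors, 4 genes of beta-catenin and its destruction complex, and 3 TCF and LEF transcription factors. The others were 8 secreted antagonists, 4 feedback inhibitors, and 2 genes of ligand processing and secretion. All 45 were found among the 38924 genes of the count table, and 44 of them had enough reads to be tested. Dkk1, which encodes a secreted antagonist, did not. The cells carry CD49f, the integrin alpha 6 chain found on the surface of basal keratinocytes. All samples were flox/flox for Rnaseh2b, whose product belongs to RNase H2, an enzyme that cuts at ribonucleotides built into DNA. There were 3 K14-Cre+ libraries (Cre-positive) and 3 K14-Cre- libraries (Cre-negative). In K14-Cre mice the recombinase is placed under the promoter of keratin 14, a gene of basal keratinocytes. The labels give no age, sex or strain, and with all 6 libraries carrying floxed alleles the presence of Cre and the loss of Rnaseh2b cannot be told apart.

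Wnt proteins are lipid-modified, secreted signals that bind Frizzled receptors together with LRP5 or LRP6. Binding blocks the complex of Axin and APC that marks beta-catenin for destruction, and beta-catenin then works with TCF and LEF factors at target genes, several of which encode inhibitors of the pathway itself. In skin the pathway is known for forming hair follicles, for starting hair growth and for maintaining basal keratinocytes.

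No member of the Wnt list passed the threshold of the Cre comparison. By the quasi-likelihood test of edgeR, at an adjusted p under 0.05, 0 of 44 members rose and 0 fell, where 0.515% of all 15525 genes tested were called, 0.406% higher and 0.110% lower. At an unadjusted p under 0.05 there were 6 members, 1 with a higher and 5 with a lower mean in Cre-positive cells, where this held for 18.8% of all genes, 10.3% higher and 8.48% lower. DESeq2 called 1 member, Fzd2, lower, where it called 5.39% of all genes, and limma-voom called 0. The median log2 fold change, Cre-positive minus Cre-negative, was -0.04 over the 44 members and -0.00 over all genes, with 19 members positive and 25 negative. The groups did not overlap for 9 members, 1 higher and 8 lower, and over all genes for 28.0%, 14.1% higher and 13.8% lower. The 95% interval of the fold change lay within a 2-fold change either way for 36 of 44 members (81.8%, against 79.2% of all genes) and within 1.5-fold for 26 (59.1%, against 55.1%). For the remaining members the interval reached past a 2-fold change in at least 1 direction.

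**Figure D1:**
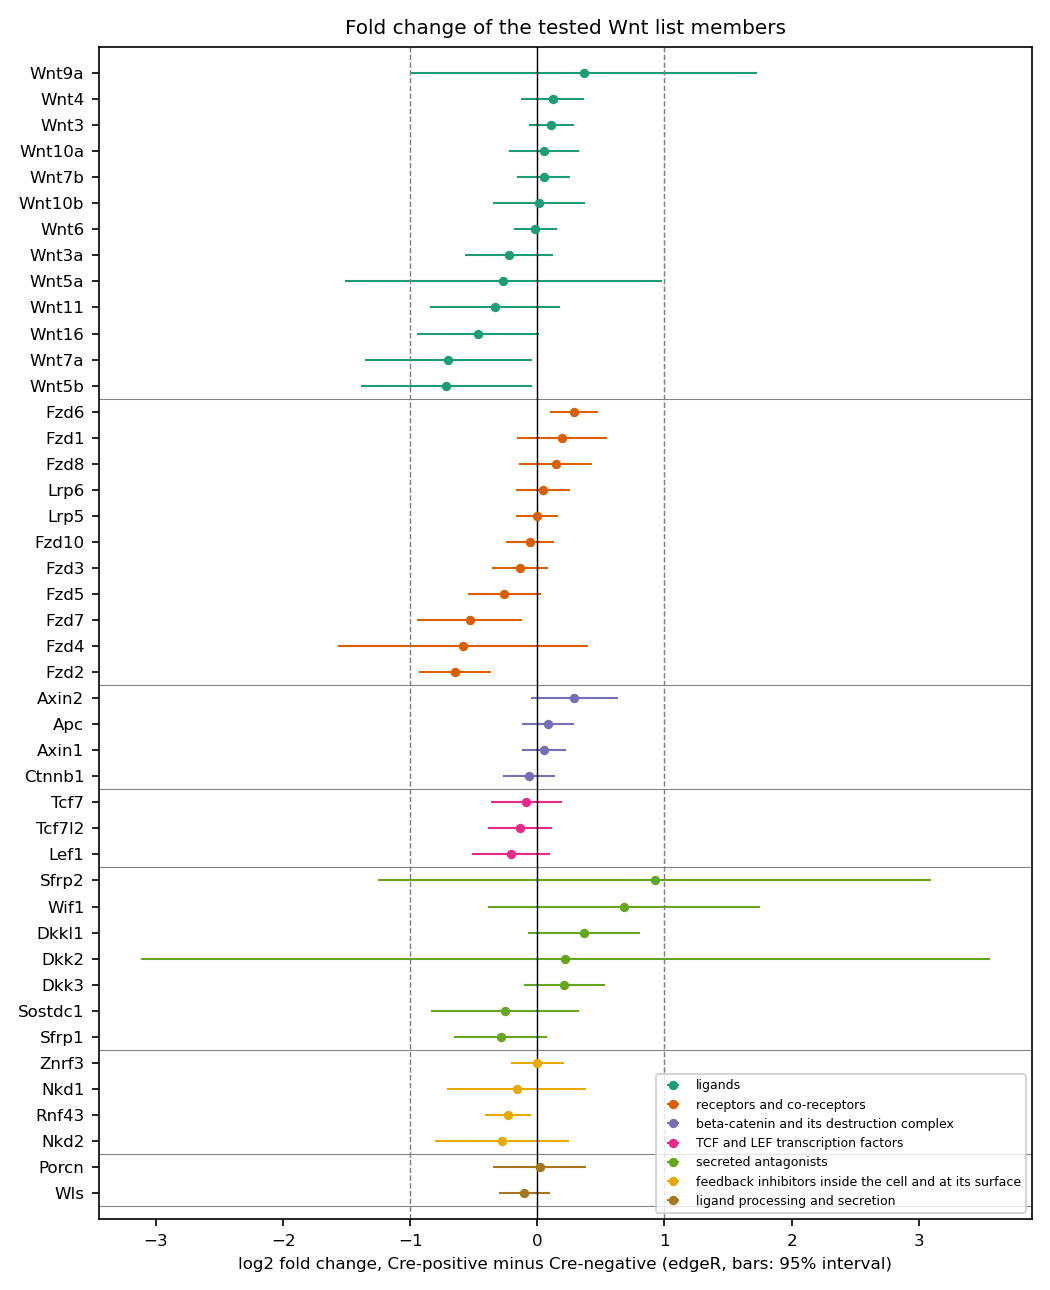
Log2 fold change of the 44 tested members, Cre-positive minus Cre-negative, from the edgeR fit. Points are estimates, bars are 95% intervals, dashed lines mark a 2-fold change either way, colours and grey lines separate the classes, and the intervals of Dkk2, Sfrp2 and Wif1 are the widest of the antagonists.

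Library totals ran from 22948779 to 31718094 counts. Normalised read counts (CPM) are given relative to library size, scaled to the tested genes and the library's scaling factor. Levels of different single genes are set side by side as CPM per kb of exon. Marker lists are summed in CPM without regard to length, so a list is read across libraries and not against another list. Rnaseh2b had 5.29, 3.98 and 3.28 CPM in Cre-positive replicates 1, 2 and 3 against 21.8, 20.7 and 21.7 CPM in Cre-negative replicates 1, 2 and 3, in the direction of the labels. The keratin of basal cells, Krt14, lay between 2617 and 3328 CPM per kb, and Krt10, a keratin of suprabasal cells, between 19471 and 32250 CPM per kb, so RNA of differentiated keratinocytes was abundant in the sorted cells. Markers of other cell types differed between libraries. Fibroblast markers (10 genes) summed to 1480, 189 and 247 CPM in Cre-positive replicates 1, 2 and 3 and to 230, 341 and 894 CPM in the Cre-negative ones, with 0 of 10 called and none at 0. Hair follicle keratinocyte markers (11 genes) summed to 3136, 2925 and 2566 CPM against 3565, 3994 and 3555 CPM, with 0 of 11 called. Basal keratinocyte markers summed to 16500 to 19106 CPM and suprabasal ones to 83806 to 141991 CPM over the 6 libraries, with 0 called in either list. Endothelial markers summed to 4.61 to 32.4 CPM and those of pericytes and smooth muscle to 52.3 to 91.0 CPM, with 0 called, and myeloid markers to 107 to 180 CPM, with 1 higher and 1 lower. Of 7 melanocyte markers 6 rose in Cre-positive cells, and 7 T cell markers summed to 7.18 to 9.53 CPM against 15.9 to 20.7 CPM with 0 called. In sorted bulk samples fewer cells of a type and less RNA per cell cannot be told apart. Cre-positive replicate 3 had the lowest CPM of the 6 libraries for 21 of the 44 members (47.7%) and for 31.1% of all genes tested. It had the highest for several others, among them Wnt4, Wnt7b, Wnt10b, Fzd6 and Dkkl1. Cre-positive replicate 1 had the highest for 10 members (22.7%) and for 14.2% of all genes. Cre-positive replicate 3 was also the only library of its group with high Xist counts (22733) and few reads of Y-linked genes (7), a pattern that Cre-negative replicates 1 and 3 shared. With sex as a covariate in the edgeR fit 0 members were called and 10 of 44 had an unadjusted p under 0.05, where 6 had it without the covariate. Over all 15525 genes tested this number also went up, from 2913 without the covariate to 3378 with it.

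Among the ligands, expression was spread over several genes, with Wnt4, Wnt7b, Wnt10b, Wnt6 and Wnt3 on top. These 5 genes held 81.9% ± 0.775 (SD, n = 3) of the summed CPM per kb of the 13 ligands in Cre-negative cells and 84.7% ± 2.58 (SD, n = 3) in Cre-positive cells. Wnt4 alone held 24.0% ± 1.63 and 25.9% ± 1.15 (SD, n = 3 each). Wnt7b held 18.1% ± 0.794 and 18.6% ± 0.477, and Wnt10b 17.3% ± 1.23 and 17.3% ± 2.53 (SD, n = 3 each), and the libraries of these neighbours in the order overlapped in both groups. The summed level of all 13 ligands was 218 ± 2.52 CPM per kb in Cre-negative and 220 ± 17.1 CPM per kb in Cre-positive cells (SD, n = 3 each). The lowest ligands were Wnt5b and Wnt9a, which lay between 0.0999 and 2.06 CPM per kb.

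**Figure D2:**
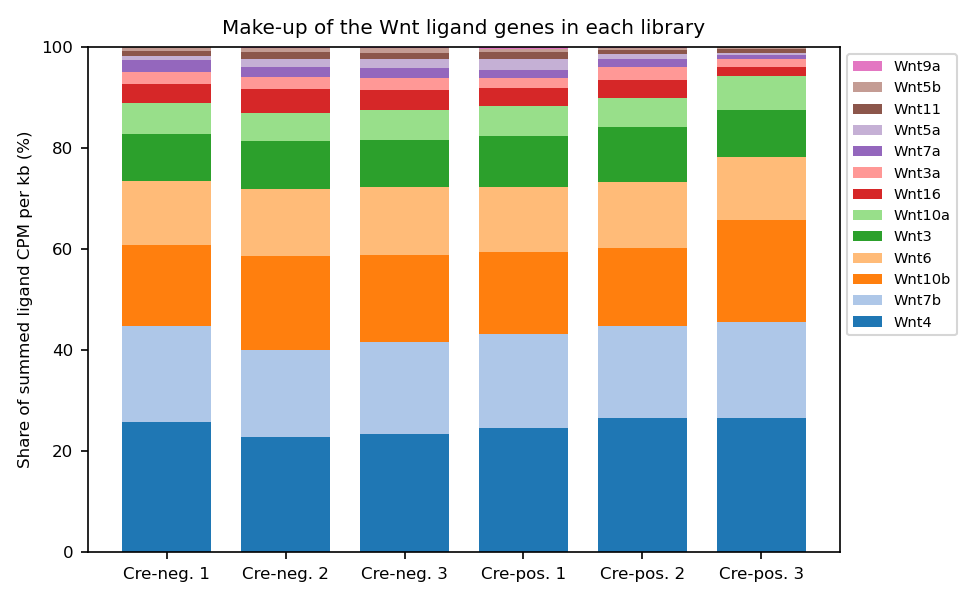
Share of the summed CPM per kb of the 13 Wnt ligand genes held by each ligand, as stacked bars for each library. Wnt4 is the largest share in every library, between 22.8% and 26.6%, and the 8 ligands stacked above Wnt3 make up the remainder of each bar.

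Wnt4, a ligand made by many epithelia, had 211, 243 and 265 CPM in Cre-positive and 237, 211 and 212 CPM in Cre-negative libraries. The groups overlapped, and its log2 fold change was 0.12 (SE 0.11). Of the ligands, Wnt7a, Wnt5b and Wnt16 had the smallest p-values, all with lower means in Cre-positive cells. Wnt7a, a ligand known from limb patterning, had 9.74, 11.6 and 4.99 CPM in Cre-positive and 15.7, 14.5 and 12.6 CPM in Cre-negative libraries. No Cre-positive library reached the Cre-negative ones, and replicate 3 was the lowest. The log2 fold change was -0.70 (SE 0.28, edgeR test, adjusted p = 0.242), and it was -0.43 without Cre-positive replicate 3. Wnt5b, a ligand that mainly signals without beta-catenin, had 3.84, 3.01 and 1.76 CPM against 4.17, 4.60 and 5.48 CPM. Again the groups did not overlap and replicate 3 was lowest (log2 fold change -0.71, SE 0.29, edgeR test, adjusted p = 0.243, and -0.47 without that library). Wnt16, a ligand best known from bone, had 32.4, 33.3 and 19.9 CPM against 35.9, 46.1 and 36.7 CPM. The groups did not overlap here either (log2 fold change -0.47, SE 0.20, edgeR test, adjusted p = 0.274), and Cre-positive replicate 3 stood apart from the other libraries. Without it the log2 fold change was -0.27, and with sex as a covariate it was -0.67 (edgeR test, adjusted p = 0.0689). Of the 11 hair follicle markers, Cre-positive replicate 3 was the lowest of the 6 libraries for 5. Most of these markers had negative log2 fold changes, from -0.66 for Krt17 to -0.19 for Dlx3. Only Krt6a and Cd34 had positive ones. Shh, 1 of the markers with a negative value, had 36.3, 37.2 and 13.4 CPM in Cre-positive and 37.4, 47.0 and 41.6 CPM in Cre-negative libraries. Krt6a had 323, 220 and 379 CPM against 111, 122 and 190 CPM, with the same Cre-positive library the highest. The part of follicle content in the ligand values was not tested.

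The other ligands showed narrower or wider intervals but no call. Wnt6 and Wnt10a lie next to each other on chromosome 1 (mm10, chr1:74771892-74785319 and chr1:74791516-74804179, both on the plus strand). Wnt6 had a log2 fold change of -0.02 and a 95% interval from -0.19 to 0.15, and Wnt10a one of 0.05 and an interval from -0.23 to 0.33. Wnt3 had 0.11 with an interval from -0.06 to 0.29, and Wnt7b and Wnt10b had 0.05 and 0.02. Adjacent ligands were not always read at like levels. Wnt10b, a ligand known from the start of hair follicle growth, had 77.2, 78.5 and 112 CPM in Cre-positive and 82.1, 95.7 and 87.1 CPM in Cre-negative libraries. Its neighbour on chromosome 15, Wnt1, which is no member of the list, had between 0 and 3 counts in every library. Per length, Wnt10b lay between 33.1 and 48.1 CPM per kb and Wnt1 between 0 and 0.0558. Wnt3a and Wnt9a are neighbours on chromosome 11 (chr11:59248033-59290752 on the minus strand and chr11:59306928-59333552 on the plus strand). Wnt3a lay between 3.87 and 5.50 CPM per kb and Wnt9a between 0.0999 and 0.619 CPM per kb over the 6 libraries. Wnt11 had a log2 fold change of -0.33 (SE 0.22).

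Promoter windows, from 250 bases before to 50 after a gene's start, were found in RefSeq (GRCm38.p6) for 29 of the 45 members, in 39 windows. The core letters read by TCF and LEF factors, CTTTGAT on either strand (ATCAAAG on the other), occurred in 2 of these windows, those of Wnt5b and Wnt11, and in 3.73% of all 32851 windows. Both sites are shown because they are the only matches in a member's window. Capitals mark the match, the Wnt5b window belongs to one of several starts of that gene, and the matches end 65 and 45 bases before the start. The sites lie at chr6:119449439-119449469 on the minus strand and chr7:98835049-98835079 on the plus strand.
Wnt5b: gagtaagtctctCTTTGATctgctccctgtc
Wnt11: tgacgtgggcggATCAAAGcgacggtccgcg
A match describes letters only, and neither gene was called in the Cre comparison.

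**Figure D3:**
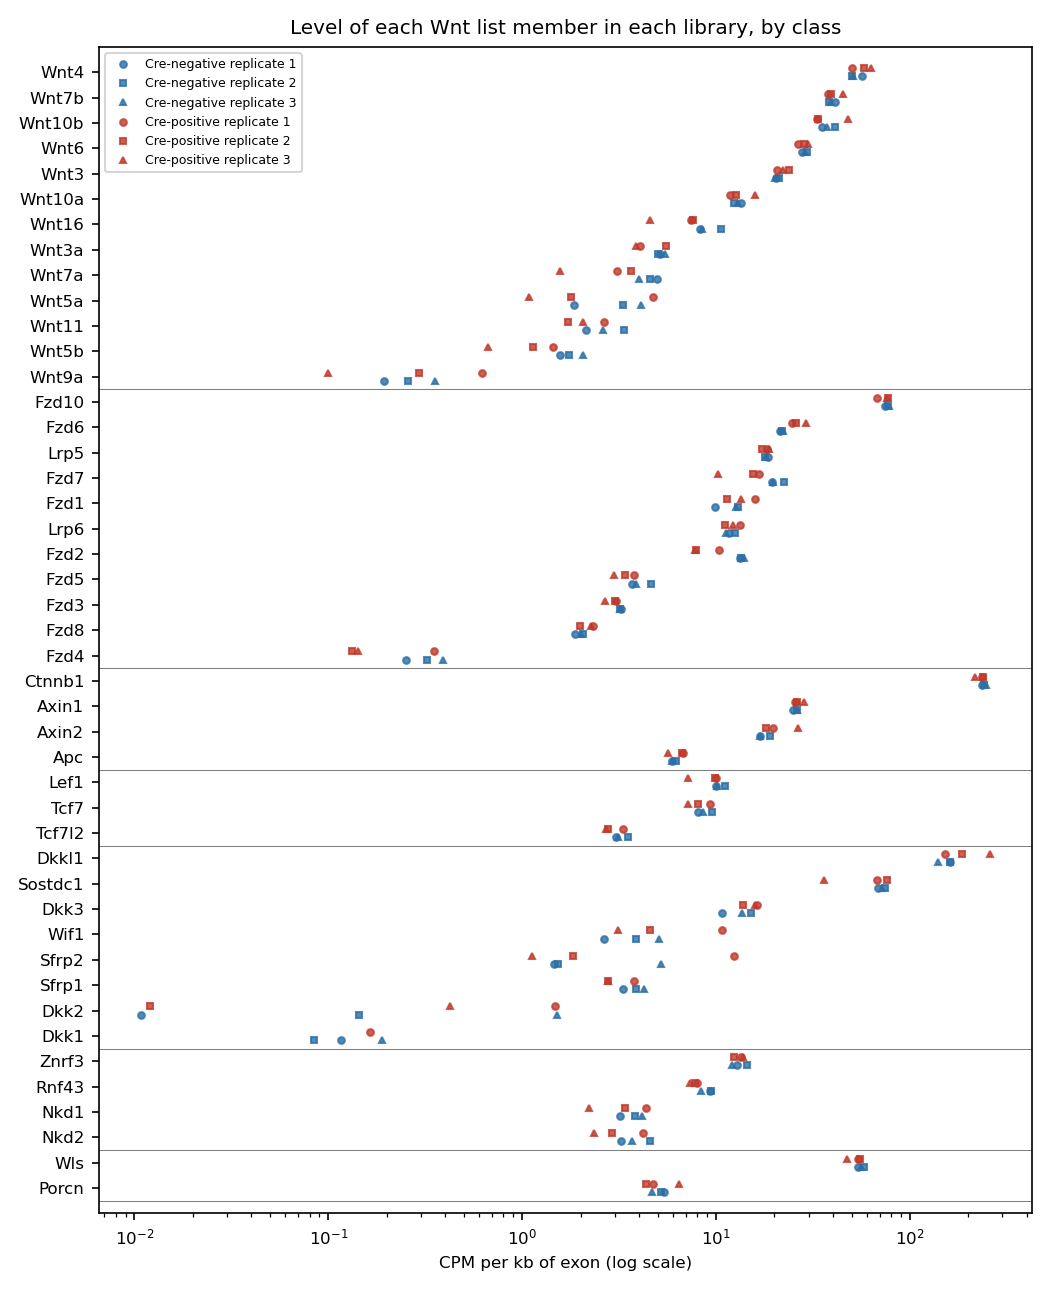
Level of each of the 45 members in each library, in CPM per kb of exon on a log scale, grouped by class from ligands at the top to ligand processing at the bottom and ordered by mean level within a class. Blue marks stand for Cre-negative and red for Cre-positive libraries, and Dkk1 has no mark in Cre-positive replicates 2 and 3, where it had 0 counts.

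Fzd10 and Fzd6 had the highest mean levels per length of the receptor genes in both groups. Next came Fzd7 in Cre-negative cells, at 20.5 CPM per kb against 18.2 for the co-receptor Lrp5, and Lrp5 in Cre-positive cells, at 18.1 CPM per kb against 14.2 for Fzd7. Fzd10 had a mean of 76.5 CPM per kb in Cre-negative and 73.6 CPM per kb in Cre-positive cells, and its CPM of 202, 230 and 228 against 223, 230 and 233 overlapped. Lrp5 and Lrp6, the co-receptors that bring Wnt to Frizzled, had log2 fold changes of -0.00 (95% interval -0.17 to 0.16) and 0.04 (-0.17 to 0.26). Lrp5 had the smallest spread between replicates of all members, at percentile 3.52 of the genes tested.

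Fzd2 was the member closest to the threshold. It is a Frizzled receptor with a single exon block at chr11:102604431-102608058 on the plus strand of mm10. Its level was 37.3, 28.5 and 28.1 CPM in Cre-positive and 48.0, 48.6 and 50.8 CPM in Cre-negative libraries. All Cre-positive libraries lay below all Cre-negative ones, and Cre-positive replicate 1, the library with the most fibroblast marker RNA, was the highest of its group. The part of fibroblast RNA in the Fzd2 values was not tested. The log2 fold change of Fzd2 was -0.65 (SE 0.12, 95% interval -0.93 to -0.36), and the adjusted p by edgeR was 0.0780. It passed by DESeq2 (adjusted p = 0.000643) and, in edgeR, with no filter beyond 1 count (adjusted p = 0.0497). It also passed by edgeR without Cre-positive replicate 1 (-0.80, adjusted p = 0.0424) or replicate 3 (-0.57, adjusted p = 0.0484). In the other alternatives it did not pass, and when a Cre-negative library was left out the adjusted p by edgeR lay between 0.273 and 0.321. Fzd2 was lower in Cre-positive cells in all 13 alternatives.

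Fzd7 and Fzd6 lay on opposite sides. Fzd7, a close relative of Fzd2 with a single exon block on chromosome 1 (chr1:59482147-59486947, plus strand), had 80.4, 74.4 and 49.3 CPM in Cre-positive and 93.5, 108 and 94.4 CPM in Cre-negative libraries. The groups did not overlap, and Cre-positive replicate 3 was again the lowest. The log2 fold change was -0.53 (SE 0.18, edgeR test, adjusted p = 0.192), and -0.35 without that library. With sex as a covariate it was -0.70 (edgeR test, adjusted p = 0.0803). Fzd6, a receptor known for orienting hair follicles in the skin, had 102, 107 and 120 CPM in Cre-positive and 88.0, 90.0 and 91.3 CPM in Cre-negative libraries. It was the only member whose Cre-positive libraries all lay above the Cre-negative ones, with a log2 fold change of 0.29 (SE 0.08, edgeR test, adjusted p = 0.157). Of the remaining receptors, Fzd1, a further relative of Fzd2 and Fzd7, had 0.19, Fzd3 -0.14, Fzd5 -0.26 and Fzd8 0.14, each with a 95% interval within 2-fold either way. Fzd4 had the lowest level of the receptors, 0.132 to 0.392 CPM per kb, and its interval ran from -1.57 to 0.40.

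**Figure D4:**
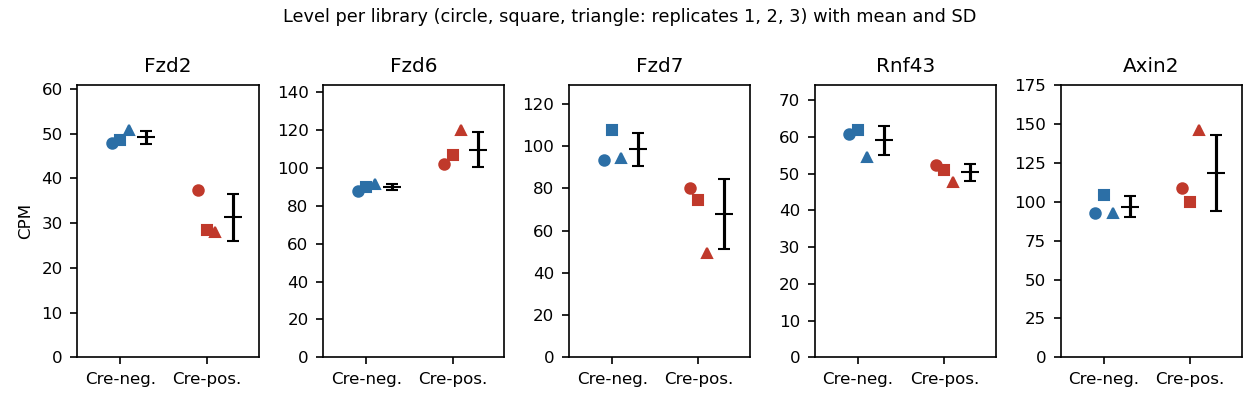
CPM of Fzd2, Fzd6, Fzd7, Rnf43 and Axin2 in each library on linear axes from 0, with the mean and SD of each group (n = 3) as black bars. Groups are separate for Fzd2, Fzd6, Fzd7 and Rnf43 and overlap for Axin2, where Cre-positive replicate 3, at 146 CPM, is the highest library.

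Beta-catenin and the genes of its destruction complex differed little between the groups. Ctnnb1, which encodes beta-catenin, was the most abundant member per length, at 241 CPM per kb in Cre-negative and 230 CPM per kb in Cre-positive cells. Ctnnb1 had 1203, 1211 and 1101 CPM in Cre-positive and 1196, 1225 and 1259 CPM in Cre-negative libraries. The groups overlapped, with a log2 fold change of -0.07 and an interval from -0.27 to 0.14. Axin1, the scaffold of the complex, had 0.06 (-0.12 to 0.23). Apc, a further scaffold, had 106, 105 and 89.3 CPM against 93.1, 97.7 and 92.8 CPM, with overlapping groups (log2 fold change 0.09, -0.12 to 0.29).

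Axin2, a scaffold that is itself induced by beta-catenin and widely used as a readout of the pathway, lies at chr11:108920349-108950783 on the plus strand. It had 109, 100 and 146 CPM in Cre-positive and 92.7, 104 and 93.0 CPM in Cre-negative libraries. Cre-positive replicate 2 lay within the Cre-negative range and replicate 3 was the highest. The log2 fold change was 0.29 (SE 0.15, 95% interval -0.05 to 0.63, edgeR test, adjusted p = 0.329), and 0.11 without Cre-positive replicate 3. That library was lowest for many other members, and was the highest for Axin2 and several more. These included Wnt4, Wnt7b, Wnt10a, Wnt10b, Fzd6, Dkkl1 and Porcn. Cre-positive replicate 3 was also the lowest of the 6 libraries for 10 of the 14 tested genes in a list of Wnt target genes (71.4%, against 31.1% of all genes tested). Axin2 and most of these targets thus did not follow one pattern there. Myc, of the same list, was highest in that library, at 120 CPM. Of these 14 genes 0 were called, with 2 higher and 1 lower at an unadjusted p under 0.05 and a median log2 fold change of -0.16.

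The transcription factors had slightly lower means in Cre-positive cells, with 0 of 3 called. Lef1, a factor of hair matrix cells and of T cells, had 86.4, 85.1 and 62.3 CPM in Cre-positive and 86.7, 95.9 and 87.6 CPM in Cre-negative libraries. Cre-positive replicates 1 and 2 lay just under the Cre-negative range and replicate 3 well under it (log2 fold change -0.21, SE 0.13, edgeR test, adjusted p = 0.425). Without replicate 3 the log2 fold change was -0.07. Tcf7, also a gene of T cells, had 24.6, 21.1 and 18.7 CPM against 21.2, 24.9 and 22.5 CPM, and the groups overlapped. Its log2 fold change was -0.09 (95% interval -0.37 to 0.19). Tcf7l2 had 29.1, 24.3 and 23.7 CPM against 26.7, 30.8 and 27.3 CPM, again with overlap (log2 fold change -0.14, interval -0.39 to 0.12). The T cell markers given above lay lower in all Cre-positive libraries, and their part in the Lef1 and Tcf7 values was not tested.

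Of the 7 secreted antagonists tested 0 were called, and their spread between replicates differed widely. Dkkl1, a relative of the Dickkopf antagonists, was the most abundant per length, at 154 CPM per kb in Cre-negative and 198 CPM per kb in Cre-positive cells. It had 137, 167 and 232 CPM in Cre-positive and 145, 145 and 126 CPM in Cre-negative libraries. Cre-positive replicate 1 lay within the Cre-negative range and replicate 3 was the highest, and the log2 fold change was 0.37 (SE 0.19, edgeR test, adjusted p = 0.333). Sostdc1, which binds LRP co-receptors and BMP proteins and is known from follicles, had 118, 133 and 63.0 CPM against 120, 130 and 126 CPM. Only Cre-positive replicate 3 stood apart, and without it the log2 fold change moved from -0.26 to 0.0047. Dkk3 had 54.4, 46.1 and 53.2 CPM against 36.1, 51.1 and 45.5 CPM, with overlap (log2 fold change 0.21, SE 0.14). Sfrp1, a decoy that resembles the Frizzled ligand-binding part, had 16.4, 12.1 and 12.1 CPM against 14.4, 16.8 and 18.6 CPM, with overlap (log2 fold change -0.29, SE 0.16).

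Sfrp2, Dkk2, Wif1 and the ligand Wnt5a varied most between replicates of one group. These genes were picked for their spread after their values were seen. Sfrp2, a decoy of dermal fibroblasts, had 26.7, 3.94 and 2.42 CPM in Cre-positive and 3.13, 3.29 and 11.2 CPM in Cre-negative libraries. Dkk2, a Dickkopf antagonist of dermal cells, had 5.44, 0.0443 and 1.57 CPM against 0.0401, 0.534 and 5.59 CPM. Wif1, a secreted protein that binds Wnt ligands, had 25.9, 11.1 and 7.56 CPM against 6.42, 9.36 and 12.3 CPM. Cre-positive replicate 1 and Cre-negative replicate 3, the libraries with the most fibroblast marker RNA, were the highest of their groups for all 3 antagonists. Wnt5a, which mostly signals without beta-catenin, had 37.1, 14 and 8.46 CPM against 14.5, 26.0 and 32 CPM, with the same libraries highest. The collagen gene Col1a1 had 397, 12.1 and 21.0 CPM against 17.0, 36.3 and 185 CPM. Of the 10 fibroblast markers, only Dcn did not follow this pattern. It had 126, 114 and 136 CPM against 100, 110 and 141 CPM, with Cre-positive replicate 3 the highest of its group. Without Cre-positive replicate 1 the log2 fold change of Sfrp2 moved from 0.92 to -0.89, that of Dkk2 from 0.22 to -1.38 and that of Wif1 from 0.68 to -0.0013. That of Wnt5a moved from -0.27 to -1.10 (SE 0.37, edgeR test, adjusted p = 0.168), and was 0.10 without Cre-positive replicate 3. The part of dermal cells in these values was not tested. Dkk1 was too low for a test, with 13, 0 and 0 counts in Cre-positive replicates against 7, 5 and 12 counts in Cre-negative replicates.

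**Figure D5:**
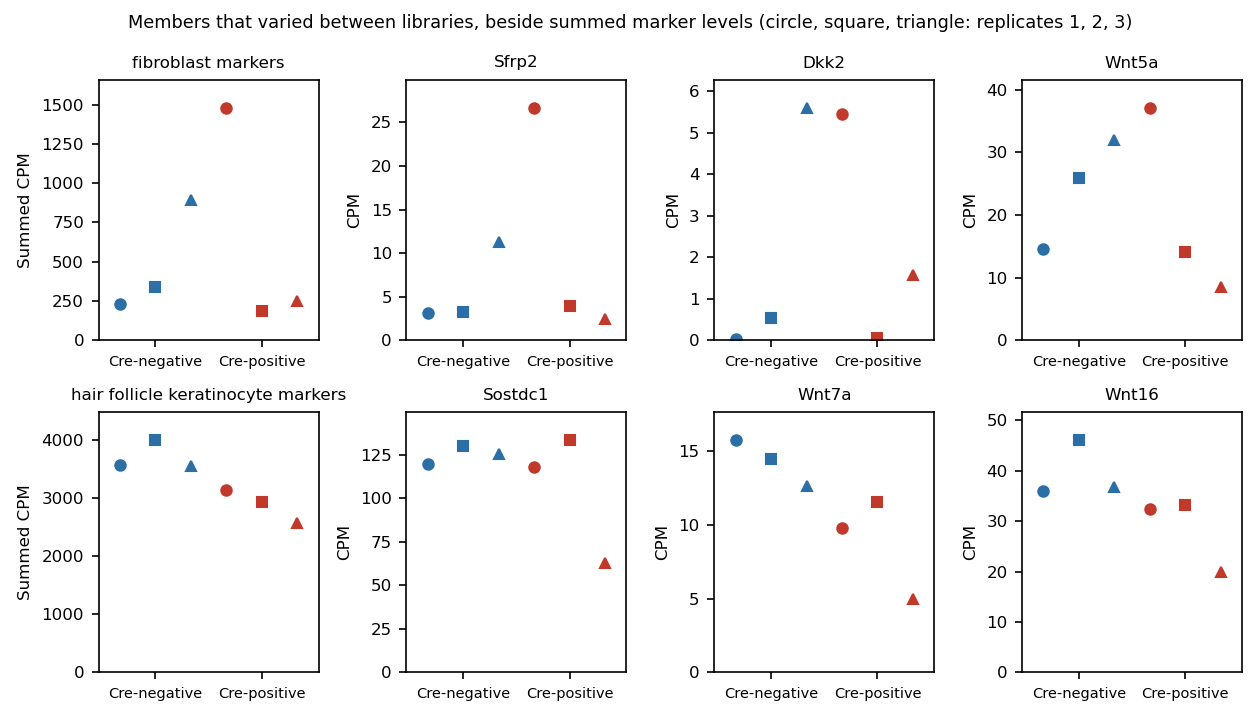
CPM of 6 members in each library beside the summed CPM of fibroblast markers (top left) and hair follicle keratinocyte markers (bottom left), on linear axes from 0, blue for Cre-negative and red for Cre-positive. In the top row Cre-positive replicate 1 and Cre-negative replicate 3 are the highest of their groups in each panel, and in the bottom row Cre-positive replicate 3 is the lowest library in each panel.

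Of the feedback inhibitors, all 4 had negative log2 fold changes and 0 passed. Rnf43, a ubiquitin ligase that removes Frizzled receptors from the surface, had 52.3, 51.0 and 47.8 CPM in Cre-positive and 60.7, 61.9 and 54.6 CPM in Cre-negative libraries. The groups did not overlap, and the log2 fold change was -0.23 (SE 0.08, edgeR test, adjusted p = 0.198). Its relative Znrf3, at 13.2 CPM per kb in both groups where Rnf43 had 7.68 and 9 CPM per kb in Cre-positive and Cre-negative cells, had 106, 97.9 and 108 CPM against 102, 114 and 95.7 CPM. These groups overlapped, with a log2 fold change of -0.00 and an interval from -0.21 to 0.21. Nkd1 and Nkd2 bind Dishevelled and are often induced by the pathway. Nkd1 had 19.3, 15.1 and 9.88 CPM against 14.2, 17.0 and 18.6 CPM, and Nkd2 19.8, 13.8 and 11.1 CPM against 15.3, 21.7 and 17.4 CPM. For both, the groups overlapped with Cre-positive replicate 1 high and replicate 3 low, and the log2 fold changes were -0.16 (SE 0.23) and -0.28 (SE 0.22). Axin2, which is also induced by the pathway, had a positive value, and neither it nor an inhibitor was called.

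Ligand processing genes overlapped between the groups. Wls, which carries Wnt proteins to the cell surface, had 179, 182 and 156 CPM in Cre-positive and 178, 192 and 184 CPM in Cre-negative libraries (log2 fold change -0.10, 95% interval -0.30 to 0.10). Porcn, the enzyme that attaches the lipid to Wnt proteins, had 14.2, 13 and 19.3 CPM against 16.2, 15.5 and 14.1 CPM (log2 fold change 0.02, interval -0.35 to 0.39). For Porcn the highest library and the lowest were both Cre-positive.

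Outside the list, 84 further Wnt pathway genes were taken by role, of which 74 were tested. By edgeR 0 rose and 0 fell. At an unadjusted p under 0.05 there were 5 higher and 8 lower of the 74, close to the 18.8% of all genes tested, and the median log2 fold change was -0.08. By DESeq2 there were 2 higher calls and 3 lower ones, where it called 5.39% of all genes, and by limma-voom 0. Kremen2, a receptor for Dickkopf antagonists, had 52.5, 52.4 and 59.3 CPM in Cre-positive and 77.0, 70.9 and 70.5 CPM in Cre-negative libraries. No library of one group reached the other (log2 fold change -0.41, SE 0.08, edgeR test, adjusted p = 0.0827). DESeq2 called Kremen2 lower (adjusted p = 0.00500), together with the Wnt receptor gene Ror1 (-0.63, adjusted p = 0.0209) and the follicle stem cell factor Sox9 (-0.43, adjusted p = 0.0158). It called the planar polarity cadherin Celsr3 (1.01, adjusted p = 0.0490) and the AP-1 subunit gene Jun (0.40, adjusted p = 0.0205) higher.

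Among the others with the smallest p in their lists, Notum, an enzyme that inactivates Wnt by removing its lipid, had 8.08, 7.48 and 4.66 CPM in Cre-positive and 9.51, 11.8 and 11.5 CPM in Cre-negative libraries. Its groups did not overlap, and the log2 fold change was -0.69 (SE 0.21, edgeR test, adjusted p = 0.178). Dvl2, a Dishevelled gene, had a log2 fold change of -0.28 (SE 0.07). Ctnnbip1, which encodes an inhibitor that binds beta-catenin, had 345, 405 and 521 CPM against 313, 306 and 308 CPM, separate groups with a log2 fold change of 0.45 (SE 0.15, edgeR test, adjusted p = 0.189). The repressive factor Tcf7l1 had -0.51 (SE 0.17), the beta-catenin cofactor Bcl9 -0.22 (SE 0.09), the R-spondin receptor Lgr5 -0.42 (SE 0.21) and the R-spondin Rspo3 -0.67 (SE 0.39). All 5 tested genes of the R-spondin list had negative values and overlapping groups.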

How the data were processed

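RNA was sequenced from CD49f-positive epidermal cells, 3 Cre-positive and 3 Cre-negative samples. The table the authors deposited holds raw counts for each gene, not normalized, per the file headers. GSNAP and featureCounts are named with the build mm10, per the submitters' processing notes. For versions, strand setting and shared reads, nothing was given in the sources used here. No member shared 5% or more of its exon bases with another gene that had a mean of at least 10 counts. The labels do not say that replicates are separate animals. By Xist and Y-linked counts each group held libraries of both sexes, so the libraries of a group did not all come from the same animal. Whether all 3 are separate animals is not known. The p-values reflect how these libraries vary, which may be partly technical.

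Genes kept by filterByExpr (minimum count 10) numbered 15525. Library scaling was by trimmed mean of M values (TMM), and counts were tested with edgeR 4.0.16 (R 4.3.3), quasi-likelihood, two-sided. The Benjamini-Hochberg adjustment covered all tested genes, with a call at 0.05. The 95% intervals come from the same fit. A floor of 3 counts was 0.0922 to 0.143 CPM, for counting error only. CPM per kb uses the merged exon length in the deposited table, not the isoform expressed, and that length is a further deposited value of another kind. Fits were tested on counts simulated with 1 dispersion for all genes, with 200 of 15525 genes changed. There edgeR called 20.7% of the 1.5-fold, 78.3% of the 2-fold and 98.3% of the 4-fold changes. No pair of libraries agreed within sampling noise (chi-square per degree of freedom at least 9.10). Pairs with Cre-positive replicate 3 lay between 48.3 and 88.5, and all other pairs between 9.10 and 28.1.

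Alternatives were DESeq2 size factors, total count scaling, limma-voom (limma 3.58.1), the Wald test in DESeq2 1.42.0, 2 other filters (1 count over all libraries, or a mean of at least 1 CPM), sex as a covariate (Xist counts above or below the sum of Ddx3y, Uty and Kdm5d), and leaving out each library. Members, lists and tests were chosen with earlier results of these data known. Values in every library are given for the 3 smallest p-values and the most abundant member of each class, and for Axin2 and Lef1. Outside the list, up to 2 genes of each group by p are named, most of them with a fold change only. Other genes given in full were chosen after their values were seen. Of 206 listed symbols 203 were matched by identifier. The remaining marker lists were basal and suprabasal keratinocytes, endothelial, myeloid, and pericyte and smooth muscle cells.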

Additional observations from a re-analysis of the deposited data

How the results depend on the processing

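Counts of called members stayed at 0 in both directions except that Fzd2 alone was called lower (1 member) by DESeq2 and with no filter beyond 1 count, and the number lower ranged from 0 to 1 when a library was left out (1 without Cre-positive replicate 1 or 3). Of the other Wnt pathway genes 2 were called higher and 3 lower by DESeq2 and 1 lower under total count scaling, and 0 to 1 lower when a library was left out. The 63 genes of all tested that rose and 17 that fell became 27 higher under total count scaling, 554 and 283 by DESeq2, 104 and 38 with no filter beyond 1 count, and 34 and 8 with sex as a covariate. They ranged from 0 to 288 higher and from 0 to 134 lower when a library was left out, with both highest without Cre-positive replicate 3. Leaving out any Cre-negative library ended nearly all calls (0, 0 and 1 higher), so 0 calls among members there says little.

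Total count scaling moved the median of all genes by -0.11 on the log2 scale. Under it the sign turned for Wnt3 (-0.0043), Wnt7b (-0.071), Wnt10a (-0.071), Wnt10b (-0.11), Lrp6 (-0.069), Axin1 (-0.063), Apc (-0.023) and Porcn (-0.11). It also turned in limma-voom for Wnt10b (-0.0015), Porcn (-0.0082) and Znrf3 (0.0019), with DESeq2 size factors and the DESeq2 test for Lrp5 (0.0037 in both) and Znrf3 (0.0080 and 0.0081), at a minimum mean of 1 CPM for Znrf3 (0.0028), and with sex as a covariate for Wnt9a (-0.12) and Lrp5 (0.012). The cause was not tested.

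Leaving out 1 library turned the sign of Wnt5a (range -1.10 to 0.10), Wnt6 (-0.059 to 0.027), Wnt7b (-0.033 to 0.10), Wnt9a (-0.44 to 0.77), Wnt10a (-0.081 to 0.14), Wnt10b (-0.18 to 0.11), Fzd10 (-0.090 to 0.0022), Lrp5 (-0.028 to 0.028), Lrp6 (-0.023 to 0.11), Tcf7 (-0.20 to 0.0020), Dkk2 (-1.38 to 3.05), Sfrp2 (-0.89 to 1.80), Wif1 (-0.0013 to 0.99), Sostdc1 (-0.47 to 0.0047), Nkd1 (-0.41 to 0.056), Znrf3 (-0.056 to 0.076) and Porcn (-0.16 to 0.13). In all, 24 of 44 members kept their sign in every alternative. No paired analysis was possible because the labels give no replicate numbers shared between the groups.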
